A study of Mus musculus with 18 samples.

Results

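Genes of the mitotic spindle, the kinetochore and cytokinesis were followed through mouse lung organoids and tumoroids. The list held 42 genes, picked by their GENCODE vM21 symbols out of the 46603 genes measured in each culture. In mitosis, Cdk1 bound to a B-type cyclin drives chromosome condensation and spindle assembly, kinetochores fasten each chromosome to spindle microtubules, and a checkpoint holds back anaphase until all chromosomes are attached. The central spindle and an actomyosin ring then split the cell. Most genes of this machinery are transcribed late in the cell cycle and are low in resting cells, and the epithelium of the adult lung divides slowly unless it is injured, cultured or transformed.

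RNA sequencing covered 18 cultures, 1 library each, made to learn how lung cells of different origin respond to an EGFR oncogene before and after transplantation. All donor mice carried human EGFR with the substitutions T790M and L858R in 1 Col1a1 locus, with the CAG promoter and a lox-stop-lox cassette that Cre removes. From the trachea, sorting on NGFR gave basal cells (positive) and club cells (negative). The distal lung gave Sca1-negative alveolar type 2 (AT2) cells and Sca1-positive bronchioalveolar stem cells (BASCs). Each sort was split into an aliquot with Ad-GFP, the control adenovirus, and an aliquot with Ad-Cre, and both were grown in Matrigel with neonatal lung mesenchymal support cells, so the RNA of a culture could come from either kind of cell. The sample labels also call the support cells endothelial, so fibroblast and endothelial markers cannot be assigned to a source. The names alveolar, bronchiolar and mixed refer to the look of the BASC organoids, which were separated by hand when they were passaged. The alveolar and bronchiolar Ad-Cre cultures, 1 of each, thus share their source with the mixed ones. After Ad-Cre organoids were put into the airways of nude mice, tumors were grown again as tumoroids, of which 3 traced to AT2, 3 to mixed BASC and 1 to bronchiolar BASC organoids. An autochthonous tumoroid (n = 1) came from a tumor that Ad-Cre started in the lung itself, where the virus does not choose the cell type. The 10 organoids were sequenced with TruSeq libraries on a HiSeq and the 8 tumoroids with BGI libraries on a DNBSEQ instrument, so platform and transplantation cannot be told apart between transplant tumoroids and organoids. The autochthonous tumoroid shares the platform of the other tumoroids and was not transplanted. The AT2 tumoroids carried an NGFR-negative sorting label beside their AT2 origin and were placed by origin. Some tumoroid labels shared a number across samples, and whether these came from the same mouse is not stated. No organoid condition was repeated, so cultures of different populations or viruses stand in for replicates. Aliquots of a sort and cultures picked from the same organoids are not independent, and the p-values measure the spread between such cultures.

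Total expected counts per organoid library lay between 27772660 and 97191624, and tumoroid libraries held 15327265 to 23355938. The 4 tracheal cultures held from 27772660 to 52148310 counts and the AT2 organoids 76844492 and 97191624. The smallest count of any of the 42 genes in any culture was 122. Levels are given as CPM, library-scaled counts with TMM factors, and as log2 CPM.

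By role the list comprised 2 cycle markers, 7 cyclins and entry kinases, 4 genes of the chromosomal passenger complex, 6 of the spindle checkpoint and anaphase, 7 of the kinetochore and centromere, 10 spindle motors and microtubule proteins, and 6 genes of the central spindle and cytokinesis. Compared per transcript length, the mean over the 18 cultures ran from 3.05 TPM, the length-scaled unit, for Aspm, a spindle pole protein, to 88.3 TPM for Cdk1, the kinase that starts mitosis. Top2a, the topoisomerase that untangles sister chromatids, had a mean of 78.8 TPM and Cdc20, the activator of the anaphase-promoting complex, 57.5 TPM. The members with the highest mean TPM in the other roles were Prc1 at 39.6, Cenpa at 35.9, Birc5 at 31.9 and Tpx2 at 23.0 TPM. The genes were spread over 17 chromosomes, with 7 on chromosome 2 (Aurka, Bub1, Bub1b, Spc25, Tpx2, Nusap1 and Ckap2l) and 6 on chromosome 9. Transcripts of Ccna2, Kif20a, Kif4 and Prc1 shared stretches of 100% identity with the overlapping neighbours Exosc9, Cdc23, Pdzd11 and Rccd1, and Ndc80 shared 303 bases at 95.05% identity with 2700099C18Rik, so their counts are uncertain by what the estimation moved between the pairs. Of the pseudogenes like Ccnb1, Cdc20 or Mad2l1, those with a value were at most at 0.65 TPM, and Gm7483 and Gm8416, both like Ccnb1, had none.

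The 42 genes moved together through the cultures. A gene's standard deviation of log2 CPM over the 18 cultures had a median of 0.77 among the members, beside 0.42 over all genes averaging 3 or more in log2 CPM. Pearson's r of each member with the mean of the others had a median of 0.95 and a highest value of 0.99 for Aurka, described over 18 cultures of which pairs share a sort and groups share a platform. The lowest r values were 0.35 for Ckap2l and 0.45 for Nek2, followed by 0.60 for Cenpf and 0.67 for Bub1. Of the 42 genes, 40 had their highest CPM in a tumoroid, 21 of them in AT2 tumoroid 3, and 35 had their lowest CPM in the Ad-Cre AT2 organoids. The exceptions at the top were Nek2 and Ckap2l, both highest in the Ad-GFP mixed BASC organoids.

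The mitotic score, the mean log2 CPM of the 42 genes, ordered the cultures over a range of 2.34, a 5.07-fold difference. The transplant tumoroids held the top of the order, with 5.68 in AT2 tumoroid 3, 5.62 in mixed BASC tumoroid 2, 5.24 in AT2 tumoroid 2, 5.16 in mixed BASC tumoroid 3, 5.07 in AT2 tumoroid 1, 4.98 in mixed BASC tumoroid 1 and 4.59 in the bronchiolar BASC tumoroid. Tracheal and mixed BASC organoids followed closely, with basal Ad-GFP at 4.58, mixed BASC Ad-GFP at 4.56, club Ad-Cre at 4.53 and basal Ad-Cre at 4.41. The autochthonous tumoroid scored 4.31, below these organoids and just above mixed BASC Ad-Cre at 4.20 and club Ad-GFP at 4.18. The lowest scores belonged to bronchiolar BASC Ad-Cre at 3.91, alveolar BASC Ad-Cre at 3.77, AT2 Ad-GFP at 3.64 and AT2 Ad-Cre at 3.34. The bronchiolar tumoroid and the basal Ad-GFP organoids, neighbours in the order, differed by less than the SD of 0.18 among the 4 tracheal cultures. In bulk RNA, fewer dividing cells and less RNA of these genes per dividing cell cannot be told apart.

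**Figure D1:**
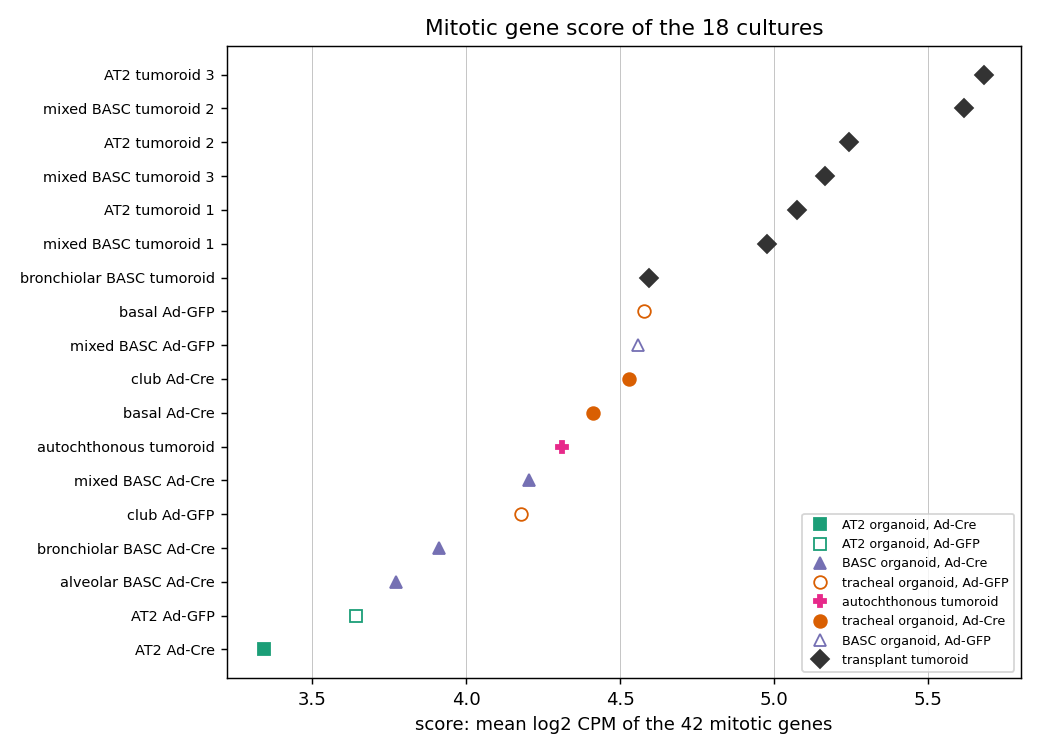
Mitotic score (mean log2 CPM of the 42 genes, horizontal axis) of each of the 18 cultures, ordered from highest to lowest, 1 point per culture, with colour and shape for the group. The 7 transplant tumoroids lie from 4.59 to 5.68, all above the 10 organoids, which lie from 3.34 to 4.58.

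Markers of other cell types were read beside the score, since the cultures are mixtures. The 10 fibroblast and smooth muscle markers, led by Col1a1 by TPM in 14 cultures, summed to 2321.9, 2176.3, 2162.3 and 2183.3 CPM in the tracheal organoids (club Ad-GFP, club Ad-Cre, basal Ad-GFP, basal Ad-Cre) and to 8199.6 and 8065.6 CPM in the Ad-GFP and Ad-Cre AT2 organoids. Among BASC organoids they summed to 2134.3 CPM in mixed Ad-GFP, 4728.9 in mixed Ad-Cre, 4749.9 in alveolar Ad-Cre and 3402.4 in bronchiolar Ad-Cre. The AT2 organoids, lowest in mitotic score, thus had the highest mesenchymal marker sums of the organoids. In the tumoroids the sum was 3504.5 CPM in the autochthonous culture, 1057.8, 595.1 and 10954.9 in AT2 tumoroids 1 to 3, 2635.3, 4792.4 and 978.5 in mixed BASC tumoroids 1 to 3, and 2094.7 in the bronchiolar tumoroid. Across the 10 organoids r between the score and the mean log2 CPM of these markers was -0.90, and across the 8 tumoroids it was 0.17. The 6 pan-epithelial markers, with Krt8 or Krt18 the most abundant by TPM, summed to 3651.9 to 4087.0 CPM in the tracheal organoids, 1600.4 and 1844.1 in the AT2 organoids and 2115.6 to 6292.4 in the BASC organoids. AT2 tumoroid 3, the culture with the highest score, had the lowest sum of all at 812.6 CPM, with Epcam at 33.8 CPM, while the other tumoroids had sums from 2003.2 to 5348.5 CPM. What part the epithelial and mesenchymal shares have in the mitotic values was not tested.

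**Figure D2:**
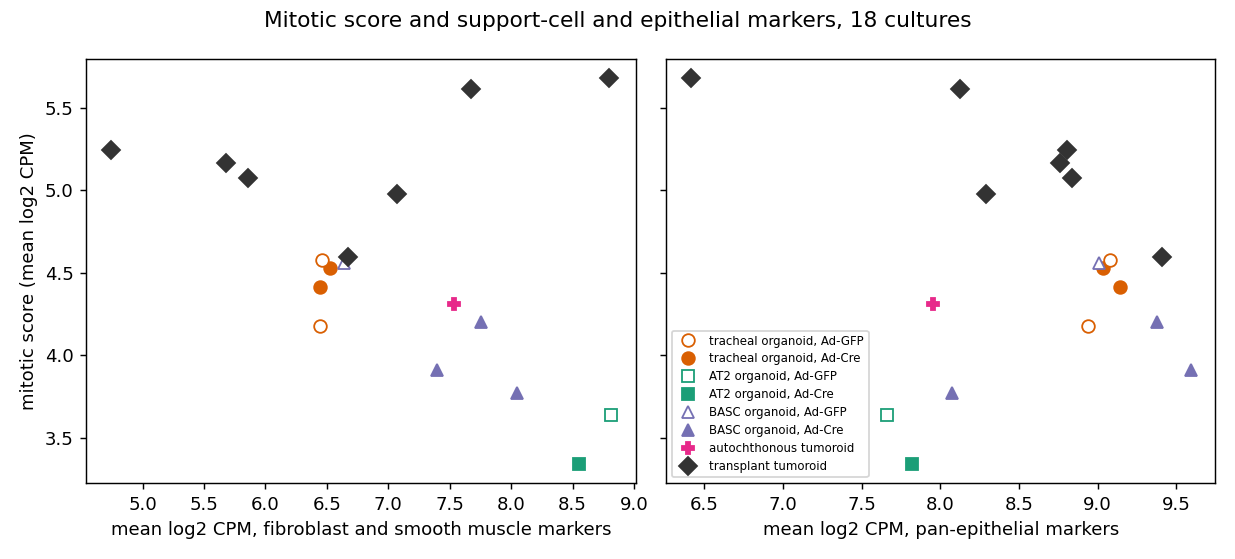
Mitotic score (mean log2 CPM of the 42 genes, vertical axis) against the mean log2 CPM of the fibroblast and smooth muscle markers (left) and of the pan-epithelial markers (right), 1 point per culture. Among organoids r was -0.90 on the left and 0.72 on the right, and among tumoroids it was 0.17 and -0.47. AT2 tumoroid 3, the highest point at 5.68, lies far right in the left panel and far left in the right panel.

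Other cell types were rare or followed the labels in part. Of the 7 endothelial markers Esam was the most abundant by TPM in every culture, Cldn5 was at 0 in 14 of them and Cdh5 and Tie1 in several, and the list summed to 0.878 to 1.07 CPM in the tracheal organoids, 155.9 and 107.1 CPM in the Ad-GFP and Ad-Cre AT2 organoids and 10.0 to 183.3 CPM in the tumoroids. Of the AT2 sums Esam made up 154.8 and 106.2 CPM, while Pecam1 (0.824 and 0.610), Kdr (0.0699 and 0.128) and Tek (0.224 and 0.203) were each below 1 CPM. The 6 leukocyte markers, led by Cd68 by TPM in 17 cultures, summed to between 14.0 and 75.6 CPM. The 5 multiciliated markers, led by Foxj1 by TPM in 13 cultures, summed to 436.5 to 508.5 CPM in the tracheal organoids and 870.1 CPM in mixed BASC Ad-GFP, but to 5.25 and 5.31 CPM in the AT2 organoids, where Dnah5 was at 0 in Ad-Cre. The data went against the club label in part. The basal markers Krt5 and Ngfr had 2397.7 and 98.2 CPM in club Ad-GFP and 2343.8 and 98.7 CPM in club Ad-Cre, no lower than in basal Ad-GFP (2127.9 and 96.4 CPM) and basal Ad-Cre (1866.4 and 89.3 CPM), and Scgb1a1, the club cell secretoglobin, stayed at 2.57 and 4.42 CPM, beside 2.53 and 1.65 CPM in basal. Scgb3a1 was higher in club (634.8 and 787.2 CPM) than in basal organoids (238.2 and 233.9 CPM), as was Scgb3a2 (775.1 and 665.4 beside 591.0 and 455.6 CPM), while Cyp2f2 overlapped. Sox2 went the other way, with 154.5 and 177.0 CPM in club and 211.9 and 194.8 CPM in basal organoids. The 5 club and secretory markers summed to 4554.4 and 4300.7 CPM in club and 4057.7 and 2740.6 CPM in basal organoids. Below, club names the sort and not the cells grown from it.

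Whether organoids of tracheal, BASC and AT2 origin differed in mitotic transcripts was asked with the 10 organoids in 1 edgeR fit, whose 3 comparisons share their cultures and are not independent. The AT2 group is 1 sort in 2 aliquots, the tracheal group 2 sorts in 2 aliquots each and the BASC group 4 cultures from 1 source, yet the fit counts every culture as independent. It has no virus term, while the alveolar and bronchiolar BASC organoids had Ad-Cre only. Between aliquots, r of the deviations from the mean of their virus group was 0.94 in AT2, 0.78 in basal and 0.63 in club, so the p-values may be too small, and how AT2 sorts differ from each other was not tested. Between AT2 and tracheal organoids 33 of the 42 genes passed a Benjamini-Hochberg adjusted p of 0.05, all lower in AT2, beside 21.9% of the 19349 genes tested that were called lower. The median log2 fold change was -0.80 for the members and -0.07 for all genes, and 41 of 42 members were lower. In 36 members both AT2 cultures lay below all 4 tracheal cultures, which held for 39.3% of 18949 genes, and the exceptions were Bub1, Espl1, Nuf2, Spc25, Kif23 and Gas2l3. The mean score was 3.49 ± 0.21 (SD, n = 2) in AT2 and 4.42 ± 0.18 (n = 4) in tracheal organoids, a difference of -0.93 (1.91-fold lower) where the mean of all genes differed by -0.09. The calls rested on both AT2 libraries: without AT2 Ad-GFP, or without AT2 Ad-Cre, edgeR no longer called any member. The members' median stayed at -0.95 and -0.67 and the score difference at -1.08 and -0.78, in fits where the lone AT2 library is assumed to vary like the other groups. With all 10 organoids DESeq2 called 33 members, beside 25.9% of its genes called lower. Over all genes, 4527 were higher and 4228 lower with all 10 organoids, 0 and 0 without AT2 Ad-GFP, and 1651 and 654 without AT2 Ad-Cre. Without basal Ad-GFP 21 members were called (median -0.75), beside 3229 genes higher and 2810 lower of 19533. Of the markers, all 10 of fibroblasts and smooth muscle were called higher in AT2 (median 2.39) and 4 of 6 pan-epithelial ones lower (median -1.10). Sequencing depth moved with this comparison too, as given above, and the part of either was not tested.

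BASC organoids lay between these groups in mean score, with single cultures from 3.77 in alveolar Ad-Cre to 4.56 in mixed Ad-GFP. Against tracheal organoids, edgeR called 0 of 42 members, beside 0.0103% of all genes tested called lower, while 2 members (Cenpf and Aspm) had an unadjusted p below 0.05 and DESeq2 called 0. Over all genes 3764 had an unadjusted p below 0.05, and DESeq2 called 949 higher and 354 lower. With virus as a term in the fit edgeR called 1 gene higher and 2 lower. The members' median log2 fold change was -0.26, beside 0.01 for all genes, and 39 of 42 were lower, but in 0 members did the groups separate, beside 5.89% of genes lower without overlap. The score was 4.11 ± 0.35 (SD over the 4 cultures), a difference of -0.31 from the tracheal mean, less than the SD among BASC cultures. All 10 fibroblast and smooth muscle markers were higher in BASC organoids (median 1.00), of which edgeR called 0, 9 had an unadjusted p below 0.05 and DESeq2 called 6. All 8 AT2 markers were higher too (median 8.15, with 0 called by edgeR, 7 at an unadjusted p below 0.05 and 2 by DESeq2). The BASC cultures were unlike in these markers. Their sum was 49557.8 CPM in alveolar Ad-Cre, near the AT2 organoids (55524.2 and 46617.1 CPM). It was 841.7 CPM in mixed Ad-GFP, 2811.3 in mixed Ad-Cre and 2579.5 in bronchiolar Ad-Cre. All 5 multiciliated markers were lower (median -0.60) and the pan-epithelial ones were split, 3 higher and 3 lower. Of the multiciliated and pan-epithelial markers edgeR called 0, and 0 had an unadjusted p below 0.05. Without mixed BASC Ad-GFP, the BASC culture with the highest score, 9 members were called lower, Mki67 (-0.56), Top2a (-0.66), Cenpf (-0.77), Nek2 (-1.52) and Ckap2l (-1.52) among them. The members' median was then -0.40, and over all genes 1794 were called higher and 1820 lower of 19105, beside 0 and 2 with all 10 organoids. Against AT2 organoids, edgeR called 0 of 42 members higher, beside 0% of all genes, while 28 members had an unadjusted p below 0.05 and DESeq2 called 20. Over all genes 6594 of 19349 had an unadjusted p below 0.05, and DESeq2 called 3004 higher and 1425 lower. The lowest adjusted p was 0.0584, for Ect2. In this comparison 40 members were higher in BASC organoids with a median of 0.56, beside 0.04 for all genes, and in 30 members all 4 BASC cultures lay above both AT2 cultures, beside 19.4% of genes. The score difference was 0.62, and without alveolar BASC Ad-Cre edgeR called 27 members (median 0.65), beside 4790 genes higher and 4508 lower of 19516. Markers moved with this comparison as well: all 6 pan-epithelial (median 1.19), all 5 multiciliated (5.16), all 4 basal (7.43) and all 5 club and secretory markers (5.47) were higher in BASC organoids, and all 10 fibroblast and smooth muscle (-1.27) and all 8 AT2 markers (-1.87) lower. EdgeR called 0 of these, while 6, 5, 4, 4, 7 and 1 had an unadjusted p below 0.05 and DESeq2 called 6, 3, 4, 4, 5 and 0. The part of these cell types in either comparison was not tested.

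The step from organoid to transplanted tumor was followed by comparing the 7 transplant tumoroids with the 4 distal Ad-Cre organoids. Of the 42 genes 36 were called higher, beside 10.8% of the 16139 genes tested. All 42 had a positive log2 fold change with a median of 1.53, beside -0.00 for all genes. In 30 members every tumoroid lay above every organoid, beside 7.85% of genes. The score was 5.19 ± 0.37 (SD, n = 7) in the tumoroids and 3.81 ± 0.36 (n = 4) in the organoids, a difference of 1.39 (2.61-fold higher), while the mean over all genes differed by -0.17. Anln, Cenpe, Cenpf, Ckap2l, Gas2l3 and Nek2 were not called. Leaving out 1 culture at a time gave 31 to 38 called members, beside 6.95% to 12.2% of genes called higher. With alveolar cultures alone, a subset chosen after seeing the data, 36 members were called, beside 5.19% of 16796 genes called higher, and the score difference was 1.74. Of the 10 fibroblast and smooth muscle markers 1 was called lower in the tumoroids, near the 8.77% of all genes called lower, and all 10 had negative log2 fold changes (median -0.60), and 0 of the 6 pan-epithelial markers were called by edgeR or had an unadjusted p below 0.05, and DESeq2 called 0. Of the 4 multiciliated markers tested 3 were called lower (median -3.01), and 1 of 2 endothelial and 1 of 5 leukocyte markers were called higher. Transplantation and platform cannot be told apart in this comparison. The autochthonous tumoroid (n = 1), on the same platform without transplantation, scored 4.31, above the 4 distal Ad-Cre organoids (at most 4.20) and within the range of all organoids. What part the share of support cells has was not tested.

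**Figure D3:**
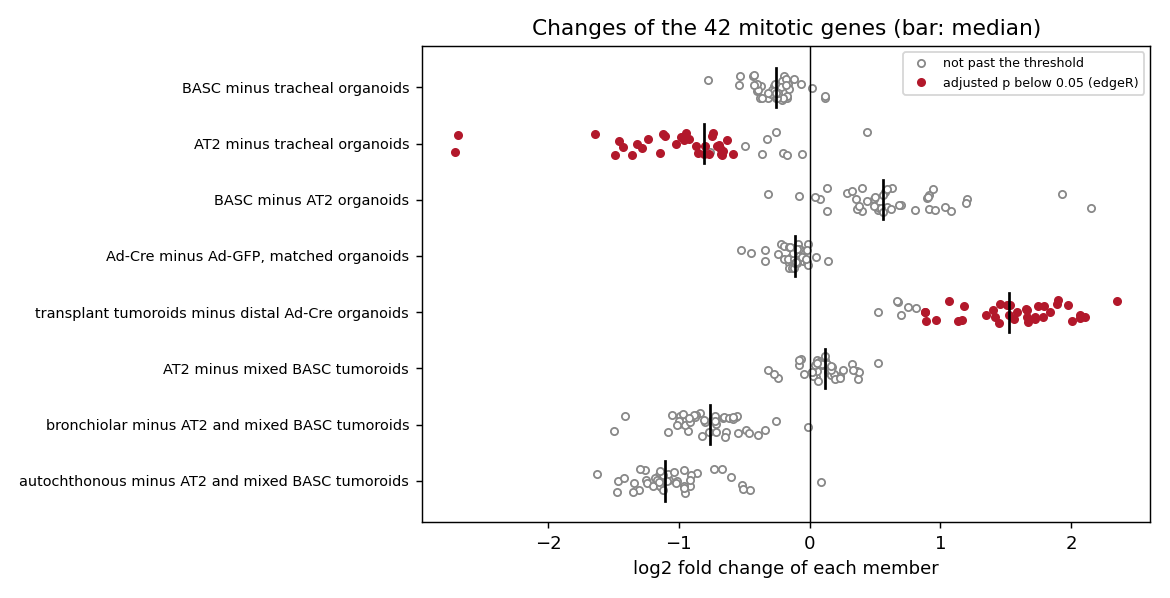
Log2 fold change (horizontal axis) of each of the 42 genes in each of the 8 comparisons (vertical axis), 1 point per gene, filled where the edgeR adjusted p was below 0.05, with a bar at the median. Filled points lie in AT2 minus tracheal organoids (33, median -0.80) and in transplant tumoroids minus distal Ad-Cre organoids (36, median 1.53).

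The cycle markers are Mki67, which coats mitotic chromosomes, and Top2a. Mki67 had 80.3 and 110.1 CPM in club Ad-GFP and Ad-Cre, 109.3 and 103.3 in basal, 54.4 and 46.8 in AT2, 103.6 and 79.1 in mixed BASC, 62.6 in alveolar BASC and 64.3 CPM in bronchiolar BASC organoids. The 7 transplant tumoroids ran from 101.2 CPM over a median of 164.0 to 188.6 CPM, and the autochthonous tumoroid had 88.9 CPM. The AT2 organoids were lowest of all, and every transplant tumoroid exceeded every distal Ad-Cre organoid. Mki67 was 1.95-fold lower in AT2 than in tracheal organoids (log2 fold change -0.96, SE 0.23, adjusted p 0.0123) and 2.55-fold higher in tumoroids than in distal organoids (1.35, SE 0.21, adjusted p 0.0022). Top2a had 105.3, 137.9, 144.2 and 127.2 CPM in the tracheal cultures in the same order, 55.5 and 45.4 in AT2, 144.3 and 102.7 in mixed BASC, 60.4 in alveolar BASC and 82.8 CPM in bronchiolar BASC organoids. Transplant tumoroids ran from 119.9 over 174.6 to 354.7 CPM, the last in AT2 tumoroid 3. Top2a was 2.49-fold lower in AT2 than in tracheal organoids (-1.32, SE 0.31, adjusted p 0.0123) and 2.85-fold higher in tumoroids (1.51, SE 0.34, adjusted p 0.0112).

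Cyclins and entry kinases start mitosis: Ccna2, Ccnb1 and Ccnb2 activate Cdk1, and Plk1, Aurka and Nek2 act on centrosomes. All 7 were called lower in AT2 than in tracheal organoids, with a median log2 fold change of -0.92. All 7 were higher in tumoroids, 6 of them called, with a median of 1.53. Cdk1 had 35.8, 42.4, 44.7 and 37.8 CPM in the tracheal cultures, 27.7 and 21.4 in AT2, 46.9 and 36.3 in mixed BASC, and 29.7 and 29.6 CPM in alveolar and bronchiolar BASC organoids. The transplant tumoroids had 50.7 at the lowest, 78.3 at the median and 96.4 CPM at the highest, so all 7 lay above the organoids, and the autochthonous tumoroid had 39.2 CPM. Cdk1 was 1.60-fold lower in AT2 (-0.67, SE 0.21, adjusted p 0.0307) and 2.64-fold higher in tumoroids (1.40, SE 0.21, adjusted p 0.00187). Its AT2 call was lost without club Ad-Cre (adjusted p 0.064), basal Ad-GFP (0.0696) or basal Ad-Cre (0.0509), with log2 fold changes of -0.64, -0.62 and -0.71. Plk1 had 8.0 to 20.1 CPM in the organoids and 36.6, 56.3 and 76.3 CPM at the lowest, median and highest transplant tumoroid, without overlap. It was 5.11-fold higher in tumoroids (2.35, SE 0.22, adjusted p 0.000341), the largest change of any member there, and Aurka was 4.03-fold higher.

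The chromosomal passenger complex, made of Aurkb, Incenp, Birc5 and Cdca8, corrects faulty attachments and later guides cytokinesis. All 4 genes were lower in AT2 than in tracheal organoids (median -0.77) and all 4 higher in tumoroids (median 1.73). Birc5 had 10.8, 13.4, 13.3 and 11.8 CPM in tracheal cultures, 8.1 and 7.1 in AT2, 13.4 and 12.2 in mixed BASC, and 9.6 and 8.6 CPM in alveolar and bronchiolar BASC organoids. Transplant tumoroids ran from 18.8 over 25.7 to 41.3 CPM, above all organoids, and the autochthonous tumoroid had 16.2 CPM. Birc5 was 1.59-fold lower in AT2 (-0.67, SE 0.21, adjusted p 0.0319), a call lost without club Ad-Cre (adjusted p 0.07), basal Ad-GFP (0.0728) or basal Ad-Cre (0.0559) at log2 fold changes of -0.62, -0.63 and -0.69, or with no expression filter (-0.65, adjusted p 0.0565), and 3.16-fold higher in tumoroids (1.66, SE 0.26, adjusted p 0.00255). Cdca8 was 3.11-fold lower in AT2 and Aurkb 3.94-fold higher in tumoroids.

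The spindle checkpoint (Bub1, Bub1b, Mad2l1, Ttk) restrains Cdc20, and Espl1 is the separase that cuts cohesin at anaphase. Of these 6 genes 3 were called lower in AT2 organoids (median -0.66), while all 6 rose in tumoroids (median 1.74). Cdc20 had 36.3, 40.3, 41.8 and 34.1 CPM in tracheal cultures, 24.5 and 19.6 in AT2, 45.2 and 24.8 in mixed BASC, 29.7 in alveolar and 15.1 CPM in bronchiolar BASC organoids. The transplant tumoroids had 50.0 to 111.3 CPM with a median of 93.0, above all organoids, and the autochthonous tumoroid 72.1 CPM. Cdc20 was 4.20-fold higher in tumoroids (2.07, SE 0.25, adjusted p 0.000897), while the AT2 difference of -0.76 was not called (adjusted p 0.113) but was without mixed BASC Ad-GFP (0.0416) or bronchiolar BASC Ad-Cre (0.0347). Ttk had 7.0 to 9.9 CPM in tracheal cultures, 4.5 and 3.2 CPM in AT2 organoids, and 9.8 to 25.1 CPM in transplant tumoroids. It was 2.16-fold lower in AT2 and 2.75-fold higher in tumoroids.

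Bub1 followed the other members least among organoids. It had 10.6, 15.3, 15.2 and 13.8 CPM in tracheal cultures, 24.5 and 11.8 in AT2, 14.5 and 13.8 in mixed BASC, 19.1 in alveolar and 12.0 CPM in bronchiolar BASC organoids. AT2 Ad-GFP was thus highest among organoids while AT2 Ad-Cre was near the bottom, and the groups overlapped. The AT2 minus tracheal log2 fold change was 0.44 (SE 0.30, adjusted p 0.257), the only positive one, and across the 10 organoids Bub1 had r of -0.17 with the other members, where the next lowest were Nuf2 (0.40), Spc24 (0.53), Espl1 (0.54) and Kif23 (0.56) and the median member had 0.97 (description only, n = 10, aliquots of a sort included). Espl1 had 8.8 to 11.0 CPM in tracheal cultures, 7.6 and 9.8 in AT2 and 6.3 to 10.7 CPM in BASC organoids, also overlapping, and a log2 fold change of -0.17. In transplant tumoroids both rose: Bub1 ran from 17.0 over 40.9 to 63.5 CPM and was 3.00-fold higher (1.58, SE 0.32, adjusted p 0.00759), and Espl1 ran from 13.5 over 30.2 to 67.8 CPM and was 4.32-fold higher (2.11, SE 0.38, adjusted p 0.00427).

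Kinetochore and centromere genes encode the histone Cenpa, the motor Cenpe, the large protein Cenpf and the 4 subunits of the Ndc80 complex. All 7 were lower in AT2 than in tracheal organoids (median -0.70), with 4 called, and all 7 higher in tumoroids (median 1.17), with 5 called. Cenpa had 14.0, 14.5, 15.0 and 14.4 CPM in tracheal cultures, 9.7 and 7.6 in AT2, 15.2 and 13.7 in mixed BASC, and 9.2 and 10.1 CPM in alveolar and bronchiolar BASC organoids. Transplant tumoroids ran from 22.6 over 27.2 to 58.1 CPM, above all organoids, and the autochthonous tumoroid had 13.6 CPM. Cenpa was 1.63-fold lower in AT2 (-0.70, SE 0.22, adjusted p 0.0294), a call lost without any single tracheal culture (adjusted p 0.0513, 0.0581, 0.0637 and 0.0569 without club Ad-GFP, club Ad-Cre, basal Ad-GFP and basal Ad-Cre, at log2 fold changes of -0.72, -0.70, -0.69 and -0.71), and 3.57-fold higher in tumoroids (1.84, SE 0.34, adjusted p 0.00459). Cenpf had 26.2 to 38.3 CPM in tracheal cultures, 12.6 and 11.4 in AT2, 16.1 to 33.9 in BASC organoids and 13.1 to 44.3 CPM in transplant tumoroids. It was 2.80-fold lower in AT2 (-1.49, SE 0.29, adjusted p 0.00856), and its tumoroid difference of 0.67 was not called (adjusted p 0.167).

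Motors and microtubule proteins build and shape the spindle. All 10 were lower in AT2 than in tracheal organoids (median -0.90), of which 9 were called, all but Kif11. All 10 were higher in tumoroids (median 1.51), of which 9 were called, all but Ckap2l. Tpx2, which nucleates microtubules and activates Aurka, had 30.1, 37.4, 41.1 and 33.3 CPM in tracheal cultures, 18.7 and 16.3 in AT2, 38.4 and 31.2 in mixed BASC, and 19.97 and 27.2 CPM in alveolar and bronchiolar BASC organoids. Transplant tumoroids ran from 39.98 over 64.7 to 126.5 CPM, and the lowest exceeded every distal Ad-Cre organoid. Tpx2 was 1.98-fold lower in AT2 (-0.99, SE 0.24, adjusted p 0.0136) and 3.31-fold higher in tumoroids (1.73, SE 0.32, adjusted p 0.00491).

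Nek2, a centrosome kinase, and Ckap2l, a spindle protein, had the widest organoid ranges. Nek2 had 52.5, 56.6, 59.4 and 54.9 CPM in tracheal cultures, 9.7 and 7.2 in AT2, 95.5 and 30.2 in mixed BASC, 11.4 in alveolar and 17.3 CPM in bronchiolar BASC organoids. Ckap2l had 48.6, 59.9, 72.3 and 56.4 CPM, 9.9 and 7.8, 75.8 and 29.4, 11.0, and 22.2 CPM in the same order. Tracheal and mixed BASC Ad-GFP organoids were high for both genes and the AT2 and alveolar BASC organoids low. In AT2 against tracheal organoids Nek2 was 6.45-fold lower (-2.69, SE 0.80, adjusted p 0.0251) and Ckap2l 6.56-fold lower (-2.71, SE 0.69, adjusted p 0.0149). Transplant tumoroids had 19.2 to 36.8 CPM of Nek2 and 18.9 to 32.6 CPM of Ckap2l, within the organoid range, and neither was called against distal organoids (log2 fold changes 0.81 and 0.53, adjusted p 0.12 and 0.285). Nek2 was called without mixed BASC Ad-Cre (1.27, adjusted p 0.0228). With alveolar cultures alone, chosen after seeing the data, Nek2 (1.70, adjusted p 0.0121) and Ckap2l (1.44, adjusted p 0.0207) were called. Stil and Cep55, which act in centriole assembly and abscission and lie outside the 42 genes, were 6.02-fold and 4.42-fold lower in AT2 than in tracheal organoids. Multiciliated markers, given above, were high in the same organoids, and all 5 were called lower in AT2 than in tracheal organoids. Across the 10 organoids their mean log2 CPM had r of 0.95 with the mitotic score, and across the tumoroids -0.08. Among organoids the score also had r of 0.87 with basal, -0.85 with AT2 and -0.89 with endothelial markers. Esam, of the endothelial list, had 106.2 to 154.8 CPM in AT2 and alveolar BASC organoids and 0.277 to 5.41 CPM in the others. Pecam1, Kdr and Tek reached at most 0.824, 0.399 and 0.282 CPM in any organoid. Whether ciliating cells contributed to Nek2 and Ckap2l was not tested.

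The central spindle and cytokinesis genes split the cell: Prc1 bundles the midzone microtubules, Kif20a and Kif23 are its motors, Ect2 activates RhoA, and Anln and Gas2l3 bind actin or both filaments. All 6 were lower in AT2 than in tracheal organoids (median -0.72), with 4 called, and all 6 higher in tumoroids (median 1.21), with 4 called. Prc1 had 37.7, 45.0, 49.4 and 43.6 CPM in tracheal cultures, 28.3 and 22.8 in AT2, 42.4 and 41.02 in mixed BASC, and 28.8 and 35.7 CPM in alveolar and bronchiolar BASC organoids. The transplant tumoroids had 55.1 to 131.9 CPM with a median of 81.4, above all organoids, and the autochthonous tumoroid 42.1 CPM. Prc1 was 1.68-fold lower in AT2 (-0.75, SE 0.18, adjusted p 0.0127) and 2.88-fold higher in tumoroids (1.53, SE 0.25, adjusted p 0.00316). Kif23 differed little among organoids, with 23.8 to 32.1 CPM in tracheal cultures, 25.8 and 24.2 in AT2 and 29.996 to 33.7 CPM in BASC organoids, overlapping between tracheal and AT2. Transplant tumoroids ran from 64.6 over 99.1 to 134.7 CPM, and Kif23 was 3.71-fold higher there (1.89, SE 0.23, adjusted p 0.00087).

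Whether the oncogene moved these genes before transplantation was asked in 4 matched pairs of aliquots from 1 sort each. EdgeR with population as a block called 0 of 42 members lower, beside 0% of 19178 genes tested, 0 members had an unadjusted p below 0.05, and DESeq2 called 0 members. Over all genes 396 had an unadjusted p below 0.05, and DESeq2 called 3 higher and 2 lower. Without the block edgeR also called 0. The median log2 fold change was -0.12, beside -0.00 for all genes, with 40 of 42 below 0, from -0.53 for Nek2 (SE 0.30) to 0.14 for Espl1. The Ad-Cre minus Ad-GFP score difference was 0.35 in club, -0.16 in basal, -0.30 in AT2 and -0.35 in mixed BASC organoids, positive in club and negative in the other 3 pairs. In club all 42 genes were higher with Ad-Cre, from 0.05 for Cenpa to 0.77 for Ndc80, while 37, 41 and 40 genes were lower in basal, AT2 and mixed BASC. The combination of higher in club and lower in the other 3 held for 35 of 42 genes, beside 10.6% of 18830 genes. Of the members, 0 were lower in all 4 pairs (4.71% of genes) and 0 higher in all 4 (4.98% of genes). In mixed BASC the lowest differences were those of Nek2 (-1.66) and Ckap2l (-1.37), with the multiciliated marker sum at 870.1 CPM in Ad-GFP and 206.6 CPM in Ad-Cre and the fibroblast and smooth muscle sum at 2134.3 and 4728.9 CPM. Over the 4 pairs all 5 multiciliated markers were lower with Ad-Cre (median -0.68) and all 10 fibroblast and smooth muscle markers higher (median 0.22). Of the AT2 markers 7 of 8 were higher (median 0.83) and of the pan-epithelial ones 5 of 6 (median 0.16). EdgeR and DESeq2 called 0 of these 4 lists, with 0, 1, 1 and 1 at an unadjusted p below 0.05. The AT2 marker sum went from 225.3 CPM with Ad-GFP to 388.4 CPM with Ad-Cre in club, from 229.5 to 241.0 in basal, from 55524.2 to 46617.1 in AT2 and from 841.7 to 2811.3 CPM in mixed BASC. What part these cell types have was not tested. The mean score difference was -0.12, and -0.27 without the club pair or -0.04 without the mixed BASC pair. Each population has 1 pair, and the difference between populations was not tested.

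**Figure D4:**
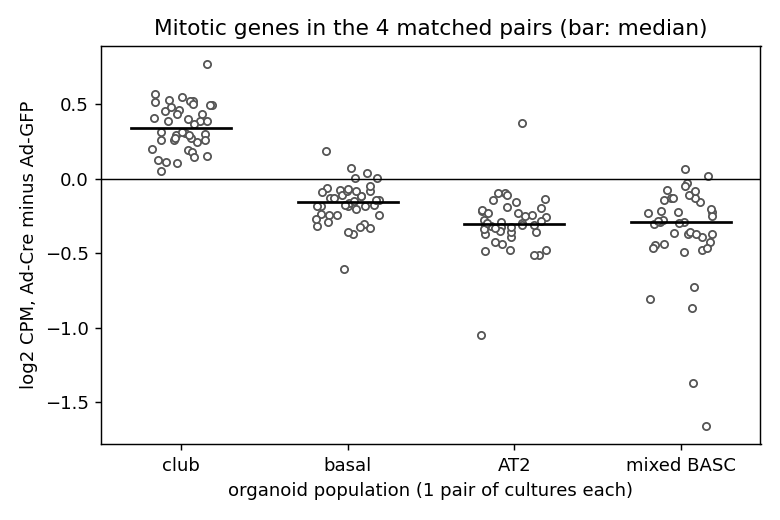
Ad-Cre minus Ad-GFP difference in log2 CPM of each of the 42 genes (vertical axis, 1 point per gene) in the club, basal, AT2 and mixed BASC pairs, with a bar at the median. The medians were 0.34, -0.15, -0.30 and -0.29, and all 42 genes lay above 0 in club.

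Among tumoroids, all 8 were fitted together and the 3 comparisons share the AT2 and mixed BASC cultures. AT2 and mixed BASC tumoroids had scores of 5.33 ± 0.31 and 5.25 ± 0.33 (SD, n = 3 each), a difference of 0.08, less than either SD. EdgeR called 0 of 42 members higher, beside 0% of 17844 genes, 0 members had an unadjusted p below 0.05, and DESeq2 called 0. The median log2 fold change was 0.12, beside 0.04 for all genes. Bub1 alone of the 42 separated the groups, near the 1.69% of all genes that lay higher without overlap. It had 50.9, 63.5 and 44.9 CPM in AT2 and 32.0, 40.9 and 38.9 CPM in mixed BASC tumoroids (log2 fold change 0.53, SE 0.22, unadjusted p 0.0538 by edgeR). The score difference was -0.093 without AT2 tumoroid 3 and -0.056 without mixed BASC tumoroid 1. With all cultures kept it was -0.052 with log2(TPM + 1) and -0.011 without TMM factors. Its direction thus rested on single cultures and on the scaling.

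The bronchiolar BASC tumoroid, a single culture assumed to vary like the other groups, had all 42 log2 fold changes below 0 against the 6 AT2 and mixed BASC tumoroids, with a median of -0.76, beside -0.07 for all genes. EdgeR called 0 of 42 members lower, beside 0.0504% of genes, 6 members had an unadjusted p below 0.05, and DESeq2 called Cdc20 (adjusted p 0.0172) and Bub1 (adjusted p 0.00258). Over all genes 1777 had an unadjusted p below 0.05, and DESeq2 called 362 higher and 341 lower of 16099. In 31 members it lay below all 6, beside 16.3% of genes. Bub1 had 17.0 CPM against 32.0 to 63.5 CPM (log2 fold change -1.41, SE 0.33), Espl1 13.5 against 28.7 to 67.8 CPM (-1.49), and Cdc20 50.0 against 88.1 to 111.3 CPM (-0.99). Its score of 4.59 differed by -0.70 from their mean of 5.29 ± 0.29 (SD, n = 6). Cell-type markers differed as well: all 4 basal markers (median 9.20, with sums of 1734.2 CPM against 1.17 to 24.8 CPM) were higher. All 5 club and secretory markers were higher too (median 6.45), while the multiciliated ones were split, 2 higher and 2 lower (median 0.87). All 8 AT2 markers were lower (median -2.91), of which edgeR called 0, 6 had an unadjusted p below 0.05 and DESeq2 called 6. All 6 pan-epithelial markers had positive log2 fold changes (median 0.81). Negative ones were found for 8 of 10 fibroblast and smooth muscle (median -0.54) and 4 of 4 endothelial markers (median -2.92). EdgeR called basal, club and secretory, and multiciliated markers higher, but no pan-epithelial, fibroblast and smooth muscle, or endothelial marker. How many it called is not given for these lists, since the bronchiolar group holds 1 culture. The part of these cell types in the mitotic values was not tested. The autochthonous tumoroid had 41 of 42 genes lower than the same 6 cultures, with a median of -1.11, beside -0.06 for all genes. EdgeR called 0 members lower, beside 0% of genes, 21 members had an unadjusted p below 0.05, and DESeq2 called 0. Over all genes 676 had an unadjusted p below 0.05, and DESeq2 called 15 higher and 43 lower of 15753. In 36 members it lay below all 6, beside 14.3% of genes, and its score of 4.31 gave a difference of -0.98. Ttk had 5.6 CPM there against 11.9 to 25.1 CPM (-1.63, SE 0.54, unadjusted p 0.0219), and Bub1, at 47.9 CPM against 32.0 to 63.5 CPM, was the member that was not lower (0.09). All 8 AT2 markers were higher there (median 1.11), of which edgeR called 0, 2 had an unadjusted p below 0.05 and DESeq2 called 1, and 6 of 10 fibroblast and smooth muscle markers were higher (median 0.07).

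Genes of neighbouring steps were read beside the 42. In tumoroids against distal organoids edgeR called higher 32 of 35 genes of S phase and DNA replication (median 1.47), 20 of 34 other kinetochore and centromere genes (0.98), 17 of 25 other spindle and cytokinesis genes (1.49), 9 of 16 condensin and cohesin genes (0.85) and 16 of 32 DREAM, FOXM1 and anaphase-promoting complex regulators (0.51). Of all 16139 genes 1751 were called higher and 1416 lower. Cdc27 and Lin52, 2 other regulators, were called lower. In AT2 against tracheal organoids the same lists had 19, 15, 17, 4 and 9 genes called lower and 0, 1, 0, 1 and 5 called higher, with medians of -0.56, -0.53, -0.83, -0.42 and -0.19. Of all 19349 genes 4228 were called lower and 4527 higher (21.9% and 23.4%). Largest among the genes called in tumoroids were Rrm2 (1.96) and Mcm5 (1.93) for S phase, Pmf1 (1.95) and Cenpn (1.81) for kinetochores, Troap (2.50) and Iqgap3 (2.22) for the spindle, Ncapd2 (2.07) and Ncaph (1.80) for condensin, and Ube2c (2.31) and Mybl2 (2.13) for regulators. Cycle brakes went both ways: of 12 genes, 2 were called higher (Cdkn2d and Cdkn2c) and 2 lower (Ccng1 and Rb1) in tumoroids. In AT2 against tracheal organoids 3 were called higher, near the share of all genes called higher there, with Tob1 (1.04) and Btg2 (0.95) the largest. In AT2 organoids E2f1 was also higher (1.36), against the direction of the mitotic genes.

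Late cell cycle genes often carry a CHR element (TTTGAA or TTTAAA) and CCAAT boxes near their start, where the DREAM and MuvB complexes and NF-Y bind. Windows from 250 bases before to 50 bases after a RefSeq transcript start were read on both strands for 35 of the 42 genes (37 windows), in build GRCm38.p6, with Dlgap5, Spc24, Kif20a, Ccna2, Incenp, Tpx2 and Aurkb missing. TTTGAA lay in 28 of 37 member windows (75.7%, beside 17.9% of all 32851 promoter windows) and TTTAAA in 10 (27.0%, beside 13.2%). CCAAT lay in 29 (78.4%, beside 37.4%), in 20 of them at least 2 times (54.1%, beside 11.7%), and CCAAT with either CHR form in 26 (70.3%, beside 10.7%). In 3 windows there was none. A motif match is a description of the sequence, and binding was not measured. The 150 bases before the start follow for 6 of the genes with full values, the first in order whose RefSeq start lies at most 30 bases inside the GENCODE gene, from RefSeq, written in the direction of transcription with motifs in capitals on either strand (TTCAAA and ATTGG being the reverse complements of TTTGAA and CCAAT). They are Mki67 (chr7:135716380-135716529, minus strand), Top2a (chr11:99024190-99024339, minus strand), Cdk1 (chr10:69352913-69353062, minus strand), Birc5 (chr11:117849087-117849236, plus strand, without a motif in these bases, its TTTAAA lying further upstream at -220), Cdc20 (chr4:118437344-118437493, minus strand) and Prc1 (chr7:80294301-80294450, plus strand, with 1 CCAAT, and with a TTTGAA at -5 that runs past the last base shown and so is not in capitals).
Mki67: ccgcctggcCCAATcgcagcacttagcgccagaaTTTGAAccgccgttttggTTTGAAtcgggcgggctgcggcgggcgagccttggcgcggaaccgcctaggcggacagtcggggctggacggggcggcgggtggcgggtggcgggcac
Top2a: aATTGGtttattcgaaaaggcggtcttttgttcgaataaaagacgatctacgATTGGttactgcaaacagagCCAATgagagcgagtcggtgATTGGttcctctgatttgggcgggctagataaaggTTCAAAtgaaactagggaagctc
Cdk1: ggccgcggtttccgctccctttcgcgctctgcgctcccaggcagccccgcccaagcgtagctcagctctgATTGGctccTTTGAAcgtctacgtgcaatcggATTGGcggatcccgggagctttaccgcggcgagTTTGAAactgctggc
Birc5: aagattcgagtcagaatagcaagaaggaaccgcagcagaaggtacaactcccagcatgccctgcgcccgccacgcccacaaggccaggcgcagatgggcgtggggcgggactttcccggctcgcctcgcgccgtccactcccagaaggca
Cdc20: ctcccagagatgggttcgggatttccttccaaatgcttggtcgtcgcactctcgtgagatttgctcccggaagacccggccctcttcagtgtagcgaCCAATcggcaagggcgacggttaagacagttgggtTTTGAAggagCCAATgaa
Prc1: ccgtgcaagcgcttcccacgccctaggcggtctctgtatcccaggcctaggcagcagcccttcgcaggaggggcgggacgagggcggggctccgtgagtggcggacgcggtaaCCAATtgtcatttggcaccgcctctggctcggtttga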

How the data were processed

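RNA of 18 mouse cultures was sequenced, 1 library each. The authors trimmed reads with Trimmomatic 0.39, aligned them to GRCm38 with STAR 2.6.1d and counted genes with RSEM 1.3.2, and they deposited expected counts per gene. The deposited tables also give TPM per gene, used here to compare genes. Symbols were matched to GENCODE M21 for 46091 genes, and 512 were not matched. Expected counts were rounded. EdgeR 4.0.16 in R 4.3.3 (filterByExpr, TMM, quasi-likelihood test) gave Benjamini-Hochberg adjusted p over all genes tested, and DESeq2 1.42.0 was the alternative test, beside a limma-voom fit for shared sorts. Log2 CPM used TMM factors over all 18 cultures and a prior count of 2. The pipeline was tested on simulated counts, drawn independently for each library. That test does not cover shared sorts or differences in cell mixture. Matched pairs were aliquots of 1 sort, and r between the aliquots' deviations from the mean of their virus group was 0.63 in club, 0.78 in basal, 0.94 in AT2 and 0.29 in mixed BASC. The 42 genes and the other lists were chosen with earlier results of these data known, so scores carry no test. Full values are given for Mki67, Top2a, the member with the highest mean TPM per role and the members with the largest change in each direction per comparison. Other lists give at most 2 genes per direction. Alternatives were other scaling, filters, terms and tests, and leaving out each culture.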

Additional observations from a re-analysis of the deposited data

Results flagged for a closer look

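In 85 groups of 4 to 10 cultures, the highest or lowest value was checked for standing apart from the rest, which chance does in about 1 of 20 groups. On the log2 CPM scale, Cdc20 was 5.65 in the bronchiolar BASC tumoroid, where the other transplant tumoroids had 6.46 to 6.80 (n = 7). Kif23 was 4.58 in club Ad-GFP, beside 4.94 to 5.01 in the other tracheal organoids (n = 4). Nek2 was 4.34 in AT2 tumoroid 1, beside 4.90 to 5.20 in the other AT2 and mixed BASC tumoroids (n = 6). Plk1 was 6.26 in AT2 tumoroid 3, beside 5.70 to 5.89 in the same group (n = 6). The Ad-Cre minus Ad-GFP score difference was 0.35 in club and lay from -0.35 to -0.16 in the other 3 populations, the opposite direction. That difference was not tested.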

How the results depend on the processing

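Leaving out 1 culture at a time gave 0 to 9 called members for BASC against tracheal, 0 to 35 for AT2 against tracheal and 0 to 27 for BASC against AT2 organoids. The share of all genes called moved in these fits too. It reached 9.53% called lower, 27.7% called lower and 24.5% called higher in the same order. DESeq2 called 20 members higher for BASC against AT2 organoids (16.1% of genes) and 2 lower for the bronchiolar tumoroid (2.12%), where edgeR called 0 in each. The AT2 minus mixed BASC tumoroid score difference of 0.08 became -0.052 with log2(TPM + 1) and -0.011 without TMM factors, and ran from -0.093 to 0.26 when 1 culture was left out. The cause was not tested. For tumoroids against distal organoids, the alternatives gave 31 to 38 called members. Among log2 fold changes of the 16 genes with full values, leaving out 1 culture kept the side of the threshold in 1083 cases, gave a call in 19 and lost it in 34. Other alternatives kept it in 779, gave a call in 36 and lost it in 1, most of the 36 in the block fit below. In none of these did the direction of a called gene reverse. Alveolar cultures alone, and the set without AT2 tumoroid 3 and the bronchiolar tumoroid, were chosen after seeing the data and gave 36 called members each, beside 5.19% and 13.3% of genes called higher. A limma-voom fit with the 4 sorts as a block, also added after seeing the data, called 35 members lower for AT2 against tracheal (32.2% of genes), 21 lower for BASC against tracheal (19.0%) and 34 higher for BASC against AT2 organoids (26.9%). AT2 and BASC have 1 sort each and the estimated correlation within sorts was -0.30, so the fit does not allow for shared sorts and nothing is drawn from it. Single libraries per condition and shared sorts limit the organoid comparisons, the platform limits that of tumoroids with organoids, and single bronchiolar and autochthonous cultures limit those among tumoroids. Support cells may add RNA to any culture.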

Other observations

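Outside the 42 genes and among 10244 genes averaging 3 or more in log2 CPM, those whose log2 CPM followed the mitotic score most closely over the 18 cultures were Racgap1 (r = 0.990), Tacc3 (0.989), Uhrf1 (0.983), Ncaph (0.982), Cdca2 (0.982), Zwilch (0.982), Clspn (0.981), Chaf1a (0.979), Kif18b (0.977) and Haus4 (0.977). The lowest r values were those of Pi15 (-0.928), Xist (-0.924), Crebrf (-0.917), Rock1 (-0.916) and Thbs1 (-0.912). These values are a description, since the cultures share sorts and platforms.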
